A study of Arabidopsis thaliana with 30 samples.

Results

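Leaves of A. thaliana plants that overexpress AhHAB4-PAI-1 were compared with leaves of plants that overexpress Ah2880 after 1 h at 45 °C (HS-1). The comparison rests on 4 of the 30 libraries of the series, 2 of AhHAB4-PAI-1 OE plants (line 13) and 2 of Ah2880 OE plants (line 12), and on all genes with enough counts, which were 19761 of the 37513 entries in the count table. Both transgenes are from grain amaranth (Amaranthus hypochondriacus). AhHAB4-PAI-1 encodes a hyaluronan and mRNA-binding protein, and Ah2880 encodes a small protein of unknown function. Both were placed under the constitutive CaMV 35S promoter in ecotype Columbia, and the plants were homozygous T4 progeny. Each OE line is 1 transformed line, so that what the transgene does and what is peculiar to that line cannot be told apart. The 2 WT libraries of HS-1 are given beside both lines. The labels describe leaf tissue of plants 4 weeks old under constant illumination, and each library holds RNA pooled from 10 plants. No library came from plants without HS, so a higher value in one line is not a measured induction. The amaranth transcripts are not entries of the count table and were not measured here.

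Heat unfolds proteins. In plants, heat shock factors (HSFs) bind heat shock elements, which are repeats of GAA and TTC in promoters, and switch on genes for chaperones. Small heat shock proteins hold unfolded proteins, HSP70 and HSP90 refold and mature them, and HSP101 pulls them out of aggregates. Factors of class A activate transcription, with the HSFA1 proteins acting first and HSFA2 prolonging the response, whereas most class B factors repress it.

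After 1 h of HS, the AhHAB4-PAI-1 OE libraries held 1145745 and 2433417 counts, against 2698310 and 3934537 in Ah2880 OE libraries and 4508397 and 5080626 in WT libraries. Levels are given as CPM, the counts of a gene scaled to a common library total after its adjustment by edgeR's TMM factor. Across genes, which are not independent replicates, log CPM correlated with r = 0.954 between the AhHAB4-PAI-1 OE libraries, 0.980 between the Ah2880 OE libraries and 0.908 to 0.931 between the lines. The mesophyll markers, which define the labelled tissue, had 17844 and 14882 summed CPM in AhHAB4-PAI-1 OE leaves, against 14597 and 13883 in Ah2880 OE leaves, and edgeR and DESeq2 called 0 of the 3 (1 was higher at an unadjusted edgeR p under 0.05). Of 5 guard cell markers, edgeR and DESeq2 called 0 and 2 were higher at that unadjusted p. Of 3 phloem and 2 root markers, 1 of each list was lower. Markers of other tissues differed, however. The 3 tested xylem markers summed to 66.6 and 63.8 CPM in AhHAB4-PAI-1 OE leaves, against 228 and 237 CPM in Ah2880 OE leaves and 85.6 and 86.5 CPM in WT leaves. All 3 were called lower, but XCP1 lost the call without AhHAB4-PAI-1 OE replicate 2, where its log2 fold change was -0.95. The meristem gene STM had 10.4 and 13.3 CPM in AhHAB4-PAI-1 OE leaves, against 41.0 and 47.0 CPM in Ah2880 OE leaves and 9.47 and 8.56 CPM in WT leaves. The petal and stamen gene AP3 had 0 and 0 counts in AhHAB4-PAI-1 OE leaves, against 22 and 18 counts in Ah2880 OE leaves and 1 and 0 counts in WT leaves. The 3 flower markers summed to 0 and 2.8 CPM in AhHAB4-PAI-1 OE leaves, against 22.6 and 20.3 CPM in Ah2880 OE leaves, and 2 of the 3 were called lower. Neither was called without AhHAB4-PAI-1 OE replicate 2 and 1 was without Ah2880 OE replicate 2. In bulk leaves, fewer cells of a type and less RNA per cell cannot be told apart. Both seed markers had at most 2 counts in any HS-1 library.

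At an adjusted p under 0.01 (edgeR's quasi-likelihood test over the 30 libraries, Benjamini-Hochberg adjustment), 3371 genes (17.1% of those tested) differed between the lines at HS-1. In AhHAB4-PAI-1 OE plants 1636 genes (8.28%) were higher and 1735 (8.78%) were lower, so that 48.5% of the called genes were higher. DESeq2 called 3122 genes, 1892 higher and 1230 lower, a share higher of 60.6%. Over all tested genes the log2 fold change had a median of -0.05. Lower genes moved further. Their median difference was 1.35 on the log2 scale and 1200 of them (69.2%) differed by at least 2-fold, whereas higher genes had a median of 0.98 and 795 (48.6%) reached 2-fold. In 85 of the lower genes both AhHAB4-PAI-1 OE libraries held 0 counts, while 1 higher gene was at 0 in both Ah2880 OE libraries. The AhHAB4-PAI-1 OE libraries were also the shallower. In them 1 count was worth 1.48 and 0.70 CPM, against 0.53 and 0.36 CPM in Ah2880 OE libraries. The part of depth in these sizes and zeros was not tested. The lines did not overlap in CPM for 1633 of the higher genes and all 1735 lower genes. With 2 libraries a line this was common, since among all tested genes 28% lay wholly higher and 33.8% wholly lower in AhHAB4-PAI-1 OE libraries. Counts of called genes followed the libraries used. Without AhHAB4-PAI-1 OE replicate 1 the test called 2215 genes, without replicate 2 of that line 1835, and without Ah2880 OE replicates 1 and 2 in turn it called 2683 and 2099.

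Among the gene lists examined, those of the heat shock response stood on the higher side in AhHAB4-PAI-1 OE plants. The 5 heat lists (HSFs, small heat shock proteins, HSP70, HSP90, and HSP101 with co-chaperones) hold 77 tested genes, of which 55 were called higher. They took up 19.5 and 20.0% of the counts in AhHAB4-PAI-1 OE libraries, against 11.9 and 11.9% in Ah2880 OE libraries and 14.7 and 14.4% in WT libraries. WT thus lay between the lines.

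**Figure D1:**
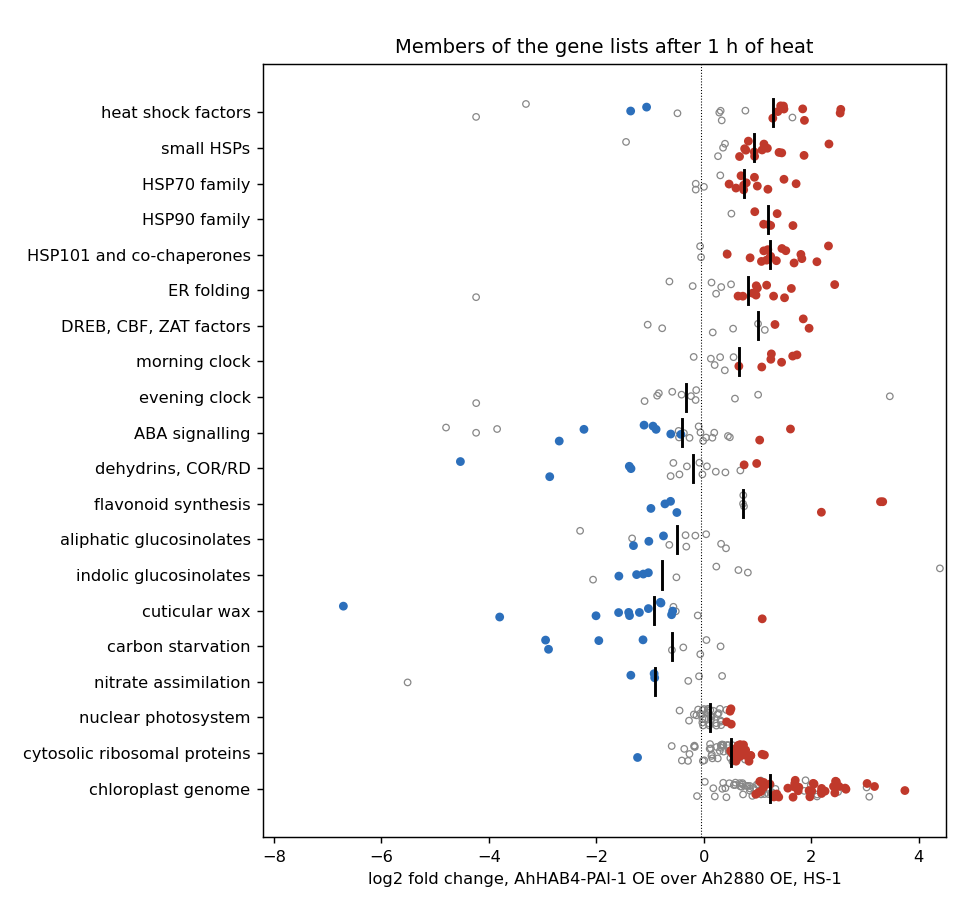
Each point is the log2 fold change (AhHAB4-PAI-1 OE over Ah2880 OE, HS-1) of 1 gene in 20 lists. Filled points passed the test, open points did not, the bar is the list's median and the dotted line is the median of all genes (-0.05). HSFs, chaperones and chloroplast genes lie mostly to the right and wax genes mostly to the left.

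Of 19 HSF genes tested, 9 were called higher and 2 lower, with a median log2 fold change of 1.28. HSFA7B (AT3G63350), a heat-inducible class A factor, had 663 and 697 CPM in AhHAB4-PAI-1 OE leaves, against 116 and 117 CPM in Ah2880 OE leaves and 179 and 178 CPM in WT leaves. Both AhHAB4-PAI-1 OE libraries lay far above the other 4, and the log2 fold change was 2.55 ± 0.13 (SE, edgeR adjusted p = 6.66e-23). Its relative HSFA7A (AT3G51910) had 902 and 944 CPM in AhHAB4-PAI-1 OE leaves, against 165 and 155 CPM in Ah2880 OE leaves, a log2 fold change of 2.54 ± 0.12. HSFA2 (AT2G26150), which prolongs acquired thermotolerance, had 5812 and 6191 CPM in AhHAB4-PAI-1 OE leaves, against 2091 and 2186 CPM in Ah2880 OE leaves and 2735 and 2753 CPM in WT leaves. Its log2 fold change was 1.49 ± 0.12. Among the first-acting factors, HSFA1E was higher by 1.87 ± 0.21 and HSFA1D by 1.48 ± 0.16 on the log2 scale in AhHAB4-PAI-1 OE plants. The other tested members, HSFA1A (listed as HSF1) and HSFA1B (HSF3), were not called, at 0.29 ± 0.77 and 0.33 ± 0.40. The class B genes were higher as well, HSFB2B by 1.43 ± 0.12, HSFB2A by 1.38 ± 0.13 and HSFB1 (listed as HSF4, AT4G36990) by 1.84 ± 0.11 on the log2 scale. HSFB1 holds the same counts as the overlapping entry AT4G36988, so the reads of this pair cannot be told apart. HSFA3 (AT5G03720), which acts downstream of DREB2A, went the other way. It had 22.2 and 28.03 CPM in AhHAB4-PAI-1 OE leaves, against 58.4 and 74.1 CPM in Ah2880 OE leaves and 67.3 and 61.3 CPM in WT leaves, a log2 fold change of -1.36 ± 0.20. The other lower member, HSFC1, had a log2 fold change of -1.07 ± 0.28 and was not called when either AhHAB4-PAI-1 OE replicate (-0.90 without replicate 1 and -1.42 without replicate 2) or Ah2880 OE replicate 2 (-0.98) was left out. HSFA4A, the ninth higher member, had a log2 fold change of 1.28 ± 0.37 and was not called without either AhHAB4-PAI-1 OE replicate (1.015 and 1.73) or Ah2880 OE replicate 1 (1.05).

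The promoter of HSFA7B is shown because it belongs to the called HSF gene with the highest log2 fold change and holds heat shock elements. Its 250 bases before the gene start lie at chr3:23398986-23399235 on the plus strand (RefSeq, TAIR10.1). The capitals mark matches to the 2-unit core of the element (GAANNTTC or TTCNNGAA), of which the first run includes 3 units.
HSFA7B promoter: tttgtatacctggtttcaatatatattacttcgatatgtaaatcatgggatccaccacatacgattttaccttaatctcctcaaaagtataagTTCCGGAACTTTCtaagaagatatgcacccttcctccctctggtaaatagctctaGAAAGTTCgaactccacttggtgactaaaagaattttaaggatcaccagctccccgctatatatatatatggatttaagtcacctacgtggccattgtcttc

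The 3-unit element (GAANNTTCNNGAA or TTCNNGAANNTTC, either strand) was found in the 250 bases before 19 of 1556 genes called higher (1.22%) and 4 of 1705 called lower (0.235%), against 0.430% of all 19296 windows of genes tested. HSFA2, HSFA7A, HSFA7B, DREB2A, GolS1 and the clock gene PRR7 were among the 19. Its 2-unit core, which every 3-unit match contains, occurred in 19.8% of higher genes, 15.0% of lower genes and 15.9% of all. Of the 55 heat-list genes called higher, 17 held the core (30.9%) and 3 held the 3-unit element (5.455%). Among all 77 tested heat-list genes, called or not, 19 held the core (24.68%) and 5 the 3-unit element (6.494%). The 3-unit element was thus no more frequent in the heat-list genes called higher than in the lists as a whole. A match says only that these letters are present.

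Small heat shock proteins shared the direction. Of 17 members, 13 were called higher and 0 lower, with a median log2 fold change of 0.94 (0 lower in DESeq2 as well, and 1 lower in edgeR at an unadjusted p under 0.05). The member with the largest fold was AT5G37670 (HSP15.7, of peroxisomes), with 1423 and 1331 CPM in AhHAB4-PAI-1 OE leaves, against 263 and 284 CPM in Ah2880 OE leaves and 506 and 551 CPM in WT leaves. Its log2 fold change was 2.33 ± 0.13. The mitochondrial-type members AT1G52560 (HSP26.5) and AT5G51440 (HSP23.5) were higher by 1.86 ± 0.11 and 1.45 ± 0.12 on the log2 scale. The cytosolic class I genes were split. AT1G59860 (HSP17.6A) had 6327 and 5723 CPM in AhHAB4-PAI-1 OE leaves, against 2281 and 2291 CPM in Ah2880 OE leaves, and was called. HSP18.2 had 6351 and 6089 CPM in AhHAB4-PAI-1 OE leaves, against 5191 and 5178 CPM in Ah2880 OE leaves and 6854 and 6725 CPM in WT leaves. With a log2 fold change of 0.26 ± 0.12 (edgeR adjusted p = 0.115) it was not called, and neither were HSP17.4 at 0.39 ± 0.14 and AT1G53540 (HSP17.6C) at 0.36 ± 0.12. For these 3 genes the WT level was as high as that of AhHAB4-PAI-1 OE leaves. The fourth member without a call, AT4G21870 (HSP15.4), had 4.44 and 1.402 CPM in AhHAB4-PAI-1 OE leaves, against 7.37 and 6.06 CPM in Ah2880 OE leaves.

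Of the 15 HSP70 genes 11 were called higher, and of the 7 HSP90 genes 6. MTHSC70-2 (AT5G09590), the HSP70 of mitochondria, had 9860 and 10037 CPM in AhHAB4-PAI-1 OE leaves, against 3048 and 3011 CPM in Ah2880 OE leaves and 4135 and 3987 CPM in WT leaves. Its log2 fold change of 1.72 ± 0.11 (edgeR adjusted p = 3.13e-19) was the largest of the family. The stress-induced Hsp70b (AT1G16030) had 26867 and 28240 CPM in AhHAB4-PAI-1 OE leaves, against 14041 and 13641 CPM in Ah2880 OE leaves, a log2 fold change of 0.99 ± 0.11. The constitutive HSC70-1 had 13048 and 13937 CPM in AhHAB4-PAI-1 OE leaves, against 10992 and 10862 CPM in Ah2880 OE leaves. Its log2 fold change of 0.30 ± 0.11 did not pass the test (edgeR adjusted p = 0.0286), although it passed with DESeq2 (0.39). Among HSP90 genes, the cytosolic HSP90.1 was higher by 1.11 ± 0.11, HSP81-2 by 1.36 ± 0.11, the mitochondrial Hsp89.1 by 1.24 ± 0.12 and SHD (HSP90.7), which serves the endoplasmic reticulum, by 1.66 ± 0.12 on the log2 scale. The HSP81 genes are near-identical copies among which reads could be split, so their single values are uncertain.

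The disaggregase HSP101 (AT1G74310) had 17875 and 21933 CPM in AhHAB4-PAI-1 OE leaves, against 9388 and 9571 CPM in Ah2880 OE leaves and 12640 and 12028 CPM in WT leaves. Its log2 fold change was 1.07 ± 0.12 (edgeR adjusted p = 1.79e-10). In its list of HSP101, co-chaperones and thermotolerance genes, 16 of 19 members were higher and the median was 1.23. Its organellar relatives differed by more. CLPB4, of mitochondria, had 2023 and 2030 CPM in AhHAB4-PAI-1 OE leaves, against 402 and 410.1 CPM in Ah2880 OE leaves, and CLPB3, of chloroplasts, had 11444 and 11563 CPM in AhHAB4-PAI-1 OE leaves, against 4057 and 3944 CPM in Ah2880 OE leaves. The log2 fold changes were 2.32 ± 0.11 for CLPB4 and 1.52 ± 0.11 for CLPB3. Fes1A, which protects HSP70, was higher by 2.102 ± 0.11, the immunophilin ROF1 by 1.82 ± 0.11, BOB1 by 1.80 ± 0.12, Hop3, which links HSP70 and HSP90, by 1.68 ± 0.11 and BAG6 by 1.45 ± 0.13 on the log2 scale. The transcriptional coactivator MBF1C, which promotes thermotolerance, was higher by 1.23 ± 0.15.

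**Figure D2:**
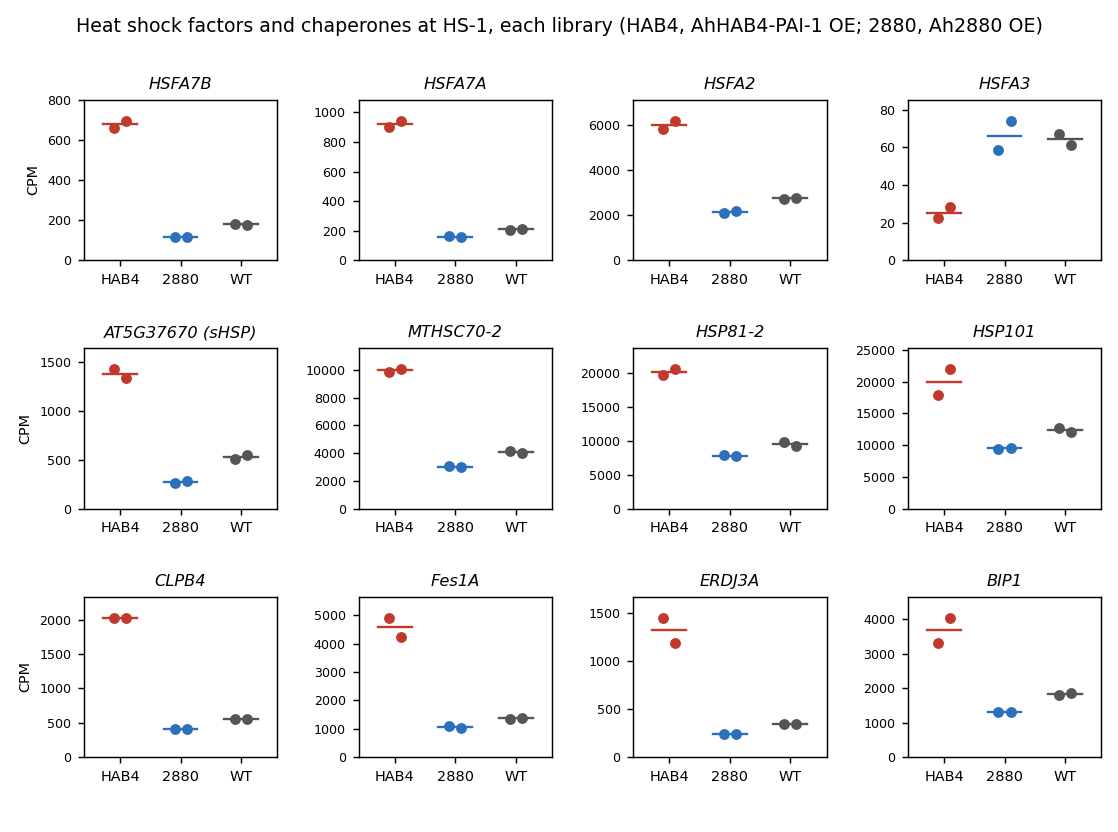
CPM of 12 heat genes in the 2 AhHAB4-PAI-1 OE, 2 Ah2880 OE and 2 WT libraries of HS-1, 1 panel per gene. Points are libraries and lines their means. HSFA7B lies at 663 and 697 CPM in AhHAB4-PAI-1 OE leaves, against 116 and 117 CPM in Ah2880 OE leaves, and WT lies between the lines at 179 and 178 CPM.

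Folding genes of the endoplasmic reticulum, which respond to unfolded secretory proteins, were higher in 11 of 18 cases, with a median of 0.81 and 0 lower calls in edgeR and in DESeq2 (1 at an unadjusted edgeR p under 0.05). ERDJ3A (AT3G08970), a J-protein that assists the HSP70 of this compartment, had 1456 and 1189 CPM in AhHAB4-PAI-1 OE leaves, against 241 and 246 CPM in Ah2880 OE leaves and 342 and 351 CPM in WT leaves. The log2 fold change was 2.43 ± 0.13 (edgeR adjusted p = 6.32e-22). BIP1, the luminal HSP70, had 3314 and 4043 CPM in AhHAB4-PAI-1 OE leaves, against 1300.6 and 1304 CPM in Ah2880 OE leaves, and its near-identical copy BIP2 had 1580 and 1606 CPM in AhHAB4-PAI-1 OE leaves, against 632 and 664 CPM in Ah2880 OE leaves. Reads of this pair could be split between them. The co-chaperone ERDJ3B was higher by 1.63 ± 0.17, and the lectin chaperones CRT1a and CNX1 by 1.17 ± 0.15 and 0.97 ± 0.11 on the log2 scale. The letters of abscisic acid response elements (ACGTGGC or ACGTGTC, either strand) occurred before 7 of the 18 genes (38.9%), against 7.51% of all windows. Other letters were frequent there too. TGGGCC occurred before 6 of the 18 (33.3%), against 16.7% of all windows. The G-box CACGTG occurred before 5 (27.8%), against 7.40% of all windows. A G-box can overlap ACGTGGC or ACGTGTC, and such shared letters were counted for both.

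WT at HS-1 was set beside each line. These comparisons share the line libraries with the contrast above and the WT libraries with each other, so they are values side by side and not further evidence. Over all genes, AhHAB4-PAI-1 OE plants had 1338 genes higher than WT (6.77%) and 1332 lower (6.74%), and Ah2880 OE plants had 588 higher (2.98%) and 299 lower (1.51%). Against WT, 10 of 17 small heat shock protein genes were higher in AhHAB4-PAI-1 OE plants and 7 were lower in Ah2880 OE plants. For HSP101 and co-chaperones 14 of 19 were higher in AhHAB4-PAI-1 OE plants and 4 were lower in Ah2880 OE plants. For HSP90 genes, all 7 were higher in AhHAB4-PAI-1 OE plants and 1 was lower in Ah2880 OE plants. The mean WT level lay between those of the lines for 1348 of the 1636 higher genes, below both for 271 and above both for 17. Among the 1735 lower genes it lay above both lines for 370 and below both for 60, and between them for the rest.

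Genes that link heat to drought and oxidative stress followed in part. DREB2A (AT5G05410), an activator of drought and heat genes, had 403 and 376 CPM in AhHAB4-PAI-1 OE leaves, against 155 and 155 CPM in Ah2880 OE leaves and 179 and 180.0 CPM in WT leaves, a log2 fold change of 1.32 ± 0.12. Its relative DREB2B was higher by 1.85 ± 0.27 and the zinc finger gene RHL41 (ZAT12) by 1.96 ± 0.21. These were the 3 members called of 9 tested in the DREB, CBF and ZAT list. The cytosolic ascorbate peroxidase APX2, a heat-inducible scavenger of hydrogen peroxide, had 1096 and 950.4 CPM in AhHAB4-PAI-1 OE leaves, against 402 and 398 CPM in Ah2880 OE leaves. In its list of ascorbate peroxidases, catalases and superoxide dismutases 4 of 15 members were higher and 1 lower, with a median of 0.29. GolS1, which makes galactinol, had 7510 and 6886 CPM in AhHAB4-PAI-1 OE leaves, against 3378 and 3147 CPM in Ah2880 OE leaves and 4189 and 4155 CPM in WT leaves. The raffinose synthase gene SIP1 was lower instead, with 56.3 and 60.3 CPM in AhHAB4-PAI-1 OE leaves, against 165 and 164 CPM in Ah2880 OE leaves. In the list of galactinol, raffinose and proline metabolism that holds both, 3 of 10 members were higher and 3 lower, with a median of -0.12. ELIP1, whose product binds chlorophyll under stress, had a log2 fold change of 1.23 ± 0.12. Of the 18 photoreceptor and light signalling genes that ELIP1 was listed with, 2 were higher and 4 lower, and the 4 became 2 without AhHAB4-PAI-1 OE replicate 1, 1 without replicate 2 of that line and 2 without Ah2880 OE replicate 2, while the 2 became 1 in each of these cases.

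Abscisic acid (ABA) acts through PYR/PYL receptors that inhibit PP2C phosphatases and so release SnRK2 kinases. In this list 2 of 24 members were higher and 7 lower. The receptor gene PYL1 had 2.96 and 5.61 CPM in AhHAB4-PAI-1 OE leaves, against 26.3 and 19.6 CPM in Ah2880 OE leaves and 12.7 and 9.99 CPM in WT leaves, and the phosphatase genes HAI1 and PP2CA had log2 fold changes of -1.11 ± 0.16 and -0.95 ± 0.14. The phosphatase gene ABI2 and the kinase gene SNRK2.3 were higher, by 1.04 ± 0.16 and 1.61 ± 0.15 on the log2 scale. The 7 lower members became 4 without AhHAB4-PAI-1 OE replicate 1, 3 without replicate 2 of that line and 4 without Ah2880 OE replicate 2. Among 16 dehydrin and COR/RD genes, which ABA or cold often induces, 2 were higher and 4 lower, and the 4 became 2 without AhHAB4-PAI-1 OE replicate 2. RD22 had 546 and 569 CPM in AhHAB4-PAI-1 OE leaves, against 1404 and 1458 CPM in Ah2880 OE leaves and 1488 and 1481 CPM in WT leaves. LTI65 (RD29B) had 1 and 0 counts in AhHAB4-PAI-1 OE leaves, a level of the Ah2880 OE line 25.5 times as high with a 95% counting interval of 4.39 to 1023, and was not called without AhHAB4-PAI-1 OE replicate 2. ERD10, a dehydrin gene, was higher by 0.98 ± 0.12. Of 9 genes of ABA synthesis and breakdown 3 were higher, and 0 of them without AhHAB4-PAI-1 OE replicate 2.

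Morning genes of the circadian clock were higher in 7 of 13 cases and lower in 0 by edgeR and by DESeq2, also at an unadjusted p under 0.05 in edgeR. The pseudo-response regulator gene PRR9 had 281 and 247 CPM in AhHAB4-PAI-1 OE leaves, against 84.2 and 74.5 CPM in Ah2880 OE leaves and 101 and 99.6 CPM in WT leaves. RVE1, a MYB-like factor, had 182 and 173 CPM in AhHAB4-PAI-1 OE leaves, against 63.7 and 65.9 CPM in Ah2880 OE leaves. CCA1, a core repressor of the clock, had 620.4 and 612 CPM in AhHAB4-PAI-1 OE leaves, against 298 and 286 CPM in Ah2880 OE leaves and 388 and 394 CPM in WT leaves. Its partner LHY was not called at this stage. LHY had 101 and 95.3 CPM in AhHAB4-PAI-1 OE leaves, against 85.2 and 92.3 CPM in Ah2880 OE leaves, a log2 fold change of 0.13 ± 0.18 (edgeR adjusted p = 0.662). RVE2 and PRR7 were higher by 1.65 ± 0.25 and 1.25 ± 0.15 on the log2 scale. CDF1, which delays flowering, was higher by 1.51 ± 0.16 but belongs to another list, of CDF factors and glycine-rich clock outputs. In that list 1 of 6 members was higher and 2 were lower, with a median of 0.06. Of 12 evening genes, edgeR called 0 and DESeq2 0 (1 higher and 4 lower at an unadjusted edgeR p under 0.05), with a median of -0.33, and GI had a log2 fold change of -0.24 ± 0.16. The evening element AAAATATCT was found before 2.89% of higher, 3.70% of lower and 2.51% of all genes.

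Cuticular wax covers the leaf surface and is made from very long fatty acids in the epidermis. Its genes stood on the lower side in AhHAB4-PAI-1 OE plants, where 12 of 16 were called lower and 1 higher, with a median of -0.92. KCS6 (CER6), an elongase of wax precursors, had 634 and 663 CPM in AhHAB4-PAI-1 OE leaves, against 1676 and 1751 CPM in Ah2880 OE leaves and 1528 and 1498 CPM in WT leaves. The log2 fold change was -1.40 ± 0.11 (edgeR adjusted p = 2e-15). CER2, which acts with KCS6, had 51.8 and 53.3 CPM in AhHAB4-PAI-1 OE leaves, against 214 and 211 CPM in Ah2880 OE leaves and 198 and 198 CPM in WT leaves. For both genes WT leaves resembled Ah2880 OE leaves in level. CER1 and CER3, which produce alkanes, had log2 fold changes of -1.03 ± 0.13 and -1.20 ± 0.14, the elongase gene KCS1 of -1.38 ± 0.14 and the lipid transfer gene LTPG2 of -1.59 ± 0.21. Another pattern held for CYP96A15 and CER4, which serve the alcohol and ketone branches and whose WT levels were low. CYP96A15 (AT1G57750) had 0 and 0.70 CPM in AhHAB4-PAI-1 OE leaves, against 52.6 and 56.3 CPM in Ah2880 OE leaves and 0.98 and 0.57 CPM in WT leaves. With 1 count in all in AhHAB4-PAI-1 OE leaves, the level in Ah2880 OE leaves was 115 times as high with a 95% counting interval of 20.5 to 4568. CER4 had 2.96 and 7.01 CPM in AhHAB4-PAI-1 OE leaves, against 83.7 and 76.6 CPM in Ah2880 OE leaves and 2.29 and 2.57 CPM in WT leaves. The regulator MYB96, an activator of wax genes, was the higher member, with 115 and 143 CPM in AhHAB4-PAI-1 OE leaves, against 61.6 and 62.7 CPM in Ah2880 OE leaves. Against WT, 10 of the 16 were lower and 1 higher in AhHAB4-PAI-1 OE plants, and 4 were higher in Ah2880 OE plants. Leaving out 1 library left 10 or 11 wax genes lower.

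Wax is made in the epidermis, and 1 of the 3 epidermis markers was called. This was KCS10 (FDH), itself an elongase of surface lipids, with 252 and 264 CPM in AhHAB4-PAI-1 OE leaves, against 525 and 529 CPM in Ah2880 OE leaves and 551 and 512 CPM in WT leaves. Its log2 fold change was -1.03 ± 0.12. PDF1, of the outer cell layer, had 124 and 125 CPM in AhHAB4-PAI-1 OE leaves, against 127 and 118 CPM in Ah2880 OE leaves. ATML1, a regulator of epidermal identity, had 63.7 and 74.3 CPM in AhHAB4-PAI-1 OE leaves, against 89.4 and 90.51 CPM in Ah2880 OE leaves, and was not called (edgeR adjusted p = 0.107). The 3 markers summed to 440 and 463 CPM in AhHAB4-PAI-1 OE leaves, against 742 and 738 CPM in Ah2880 OE leaves, with most of the gap from KCS10. The part of the epidermis, xylem, flower and meristem markers in these differences was not tested.

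**Figure D3:**
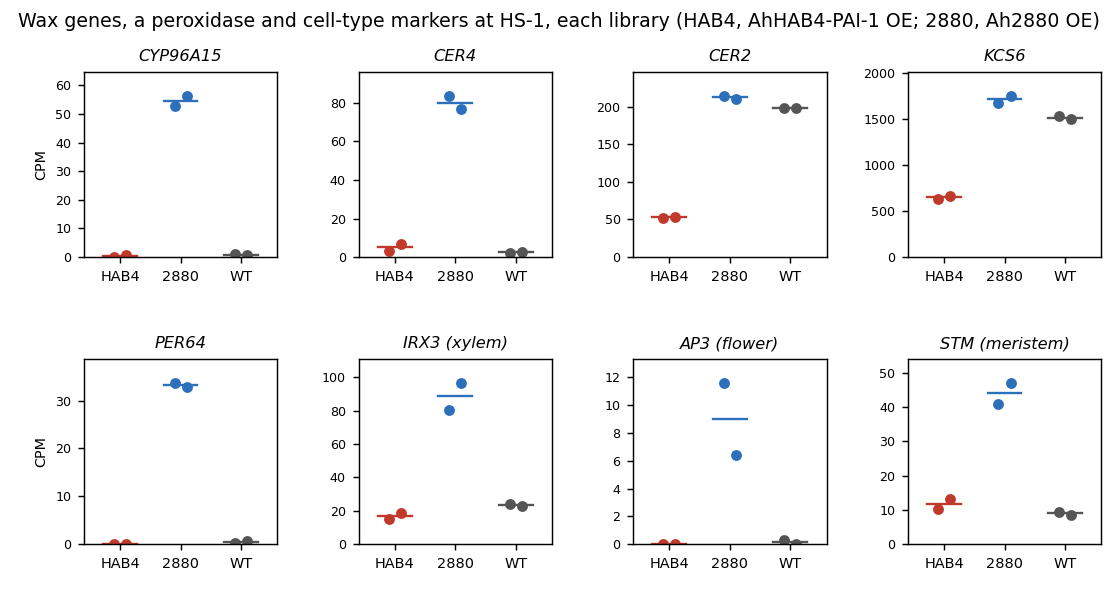
CPM of the wax genes CYP96A15, CER4, CER2 and KCS6, of the peroxidase gene PER64 and of the markers IRX3 (xylem), AP3 (flower) and STM (meristem) in the 2 libraries (points, with lines at their means) of each line and of WT at HS-1. CYP96A15, CER4, PER64, IRX3, AP3 and STM are high in Ah2880 OE leaves alone, whereas CER2 and KCS6 are low in AhHAB4-PAI-1 OE leaves alone.

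The genes with the largest falls in AhHAB4-PAI-1 OE plants included several of that first kind. PER64 (AT5G42180), a peroxidase gene known from the lignin of the root endodermis, had 0 and 0 CPM in AhHAB4-PAI-1 OE leaves, against 33.7 and 32.8 CPM in Ah2880 OE leaves and 0.33 and 0.57 CPM in WT leaves. With 3 counts set in each library at 0, its level in AhHAB4-PAI-1 OE leaves was lower by at least 10.2-fold. The dehydrogenase-family gene AT3G59845 and the terpenoid cyclase gene LUP5 were at 0 in both AhHAB4-PAI-1 OE libraries and both WT libraries, and by the same floor they were at least 8.56-fold and 8.29-fold lower there than in Ah2880 OE leaves. FLA12, an arabinogalactan protein of secondary walls, had 1.48 and 0.70 CPM in AhHAB4-PAI-1 OE leaves, against 53.7 and 50.6 CPM in Ah2880 OE leaves and 3.92 and 6.56 CPM in WT leaves. On its 2 counts in AhHAB4-PAI-1 OE leaves, FLA12 was 54.5 times as high in Ah2880 OE leaves, with a 95% counting interval of 14.9 to 452. The xylem cellulose synthase genes IRX3 and CESA4 moved alongside, with log2 fold changes of -2.34 ± 0.23 and -2.46 ± 0.24. AT5G37940 had 1.48 and 1.402 CPM in AhHAB4-PAI-1 OE leaves, against 64.7 and 54.9 CPM in Ah2880 OE leaves and 1.96 and 1.14 CPM in WT leaves, and on 3 counts in AhHAB4-PAI-1 OE leaves the level of the Ah2880 OE line was 41.2 times as high (95% counting interval 13.96 to 201). All of these were thus high only in the Ah2880 OE libraries among the 6 of HS-1. The part of xylem, flower and meristem tissue in these differences was not tested.

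For other large falls WT was as high as or higher than Ah2880 OE leaves. AT3G60930, of unknown function, had 2.96 and 2.80 CPM in AhHAB4-PAI-1 OE leaves, against 77.3 and 75.2 CPM in Ah2880 OE leaves and 143 and 137 CPM in WT leaves, and suffixed entries of the same locus hold nearly the same counts. MLP34 (AT1G70850), of the MLP-like proteins, had 0 and 4.21 CPM in AhHAB4-PAI-1 OE leaves, against 73.7 and 84.8 CPM in Ah2880 OE leaves and 62.4 and 62.2 CPM in WT leaves. The protease inhibitor gene KTI1 had 0 and 1.402 CPM in AhHAB4-PAI-1 OE leaves, against 26.3 and 30.3 CPM in Ah2880 OE leaves and 29.4 and 27.96 CPM in WT leaves. With 2 counts in AhHAB4-PAI-1 OE leaves, KTI1 was 30.1 times as high in Ah2880 OE leaves (95% counting interval 8.19 to 251). These 3 genes were low in AhHAB4-PAI-1 OE leaves alone. Among genes with large differences in CPM, a scale without correction for length, CYP86A2, which makes cutin monomers, had 289 and 358 CPM in AhHAB4-PAI-1 OE leaves, against 1096 and 1128 CPM in Ah2880 OE leaves and 1161 and 1152 CPM in WT leaves.

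The largest rises outside the heat lists were of mixed function. EMB3111 (AT2G01390), a repeat protein of the TPR-like family, had 249 and 249 CPM in AhHAB4-PAI-1 OE leaves, against 26.8 and 35.6 CPM in Ah2880 OE leaves and 52.3 and 50.8 CPM in WT leaves. DRB3, which binds double-stranded RNA, had 50.3 and 52.6 CPM in AhHAB4-PAI-1 OE leaves, against 7.89 and 6.06 CPM in Ah2880 OE leaves. Both had log2 fold changes near 3, of 2.97 ± 0.16 for EMB3111 and 2.92 ± 0.28 for DRB3. The precursor of the microRNA of MIR824 had 595 and 659.5 CPM in AhHAB4-PAI-1 OE leaves, against 91.0 and 99.1 CPM in Ah2880 OE leaves. AT5G23480, with SWIB and GYF domains, was higher by 3.14 ± 0.28, and AT4G32208, an HSP70-family entry outside the list, by 2.81 ± 0.17 on the log2 scale.

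Flavonoid genes were called in both directions. Of 10 members 3 were higher and 4 lower, and the 4 became 2 without AhHAB4-PAI-1 OE replicate 2. DFR, which commits the pathway to anthocyanins, had 59.2 and 47.7 CPM in AhHAB4-PAI-1 OE leaves, against 7.37 and 3.56 CPM in Ah2880 OE leaves and 15.0 and 14.8 CPM in WT leaves. LDOX, the next step, had 60.7 and 54.0 CPM in AhHAB4-PAI-1 OE leaves, against 6.31 and 5.34 CPM in Ah2880 OE leaves. FLS1, which makes flavonols from the same precursors, had 148 and 144 CPM in AhHAB4-PAI-1 OE leaves, against 238 and 243 CPM in Ah2880 OE leaves and 123 and 130.4 CPM in WT leaves. The log2 fold changes were 3.33 ± 0.31 for DFR, 3.29 ± 0.30 for LDOX and -0.73 ± 0.13 for FLS1, while the flavonol regulator MYB111 was higher by 2.19 ± 0.39. The other lower members were TT4, TT5 and F3H, of the early steps that both products share, with log2 fold changes of -0.50 ± 0.12, -0.99 ± 0.20 and -0.62 ± 0.13. F3H (-0.57) and TT5 (-1.013) were not called without AhHAB4-PAI-1 OE replicate 2, nor was TT4 without AhHAB4-PAI-1 OE replicate 1 (-0.43) or Ah2880 OE replicate 2 (-0.47).

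Glucosinolates are sulfur-rich defense compounds. Of the indolic genes 4 of 10 were lower and 0 higher, and of the aliphatic genes 3 of 12 were lower and 0 higher (edgeR; at an unadjusted p under 0.05, 2 indolic and 1 aliphatic genes were higher, and DESeq2 called 0 higher in both). The indolic enzyme genes CYP83B1 and SOT16 had log2 fold changes of -1.13 ± 0.21 and -1.58 ± 0.21. SOT16 had 22.2 and 25.9 CPM in AhHAB4-PAI-1 OE leaves, against 81.0 and 68.1 CPM in Ah2880 OE leaves and 41.8 and 42.8 CPM in WT leaves. UGT74B1, which adds the glucose, was lower with -1.25 ± 0.17.

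Genes of carbon starvation and nitrate assimilation were on the lower side. DIN10, induced by darkness and sugar depletion, had 11.8 and 11.2 CPM in AhHAB4-PAI-1 OE leaves, against 88.4 and 88.4 CPM in Ah2880 OE leaves and 49.3 and 54.8 CPM in WT leaves. ASN1, the asparagine synthetase gene of starved leaves, had 4.44 and 9.11 CPM in AhHAB4-PAI-1 OE leaves, against 33.7 and 26.4 CPM in Ah2880 OE leaves and 23.52 and 22.5 CPM in WT leaves. They were among 4 of 9 starvation genes called lower by edgeR, with 0 higher there, in DESeq2 or at an unadjusted edgeR p under 0.05, and the 4 became 2 without AhHAB4-PAI-1 OE replicate 2. The nitrate reductase gene NIA2 had 391 and 514 CPM in AhHAB4-PAI-1 OE leaves, against 1144 and 1210 CPM in Ah2880 OE leaves and 1204 and 1193 CPM in WT leaves. With NIR1, the nitrite reductase gene (-0.93 ± 0.13), it was among 3 of 7 nitrate genes called lower. Of 10 low-oxygen genes 3 were lower, among them the sucrose synthase gene SUS1 (-1.33 ± 0.16) and the pyruvate decarboxylase gene PDC2 (-1.08 ± 0.14). The proline dehydrogenase gene ERD5 had 11.8 and 15.42 CPM in AhHAB4-PAI-1 OE leaves, against 43.1 and 48.5 CPM in Ah2880 OE leaves and 10.13 and 13.7 CPM in WT leaves. Of 12 expansin and XTH genes, which loosen cell walls, 5 were lower and 1 higher, with the touch-induced TCH4 at -2.46 ± 0.38 and EXPA1 at -1.71 ± 0.24. The higher member was not called without AhHAB4-PAI-1 OE replicate 1 or without either Ah2880 OE replicate.

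Genes encoded by the chloroplast genome gave one of the highest list medians. Of 83 tested, 37 were called higher and 0 lower (edgeR, 0 also at an unadjusted p under 0.05 and in DESeq2), with a median log2 fold change of 1.24. The libraries were made by oligo(dT) selection, which recovers such transcripts poorly, and they took up 0.841 and 1.19% of the counts in AhHAB4-PAI-1 OE libraries, against 0.926 and 0.548% in Ah2880 OE libraries and 1.105 and 0.738% in WT libraries. These shares overlap between the lines, whereas the summed CPM of the 83 genes, which include the TMM factor, did not, with 14158 and 20189 in AhHAB4-PAI-1 OE leaves, against 13121 and 7659 in Ah2880 OE leaves and 16222 and 10669 in WT leaves. The entries that the test called had low counts, such as ATCG00790 with 25.2 and 19.6 CPM in AhHAB4-PAI-1 OE leaves, against 3.16 and 1.78 CPM in Ah2880 OE leaves and 4.90 and 4.85 CPM in WT leaves. The 37 became 22 without AhHAB4-PAI-1 OE replicate 2 and 23 without Ah2880 OE replicate 2. Of 127 mitochondrial entries 23 were higher and 6 lower, and the 23 became 13 without AhHAB4-PAI-1 OE replicate 1 and 12 without Ah2880 OE replicate 2. The summed CPM of the 127 entries was lower, however, with 6090 and 5667 in AhHAB4-PAI-1 OE leaves. That sum was 7129 and 7083 in Ah2880 OE leaves and 6031 and 5510 in WT leaves. ATMG00200 had 22.2 and 11.2 CPM in AhHAB4-PAI-1 OE leaves, against 0.526 and 1.07 CPM in Ah2880 OE leaves. Nuclear photosystem genes moved little, with a median of 0.11, and 4 of 38 were higher, which became 0 without AhHAB4-PAI-1 OE replicate 1 or without Ah2880 OE replicate 2.

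Cytosolic ribosomal protein genes were picked by the wording of their descriptions, which can miss members and take in other entries. Of 64 such genes tested, 21 were higher and 1 lower, with a median of 0.50. AT2G27710, of an acidic protein of the large subunit, had 209 and 116 CPM in AhHAB4-PAI-1 OE leaves, against 77.3 and 64.5 CPM in Ah2880 OE leaves and 78.7 and 81.9 CPM in WT leaves. AT5G56710, of the L31e family, had 127 and 93.9 CPM in AhHAB4-PAI-1 OE leaves, against 49.5 and 51.3 CPM in Ah2880 OE leaves and 66.3 and 67.6 CPM in WT leaves, a log2 fold change of 1.08 ± 0.18. AT5G02450, of the L36e family, was higher by 0.87 ± 0.15. In each of the 3 genes AhHAB4-PAI-1 OE replicate 1 was the highest library. The 21 became 7 without that replicate and 8 without Ah2880 OE replicate 2.

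The element TGGGCC, known from promoters of ribosomal protein genes, was found on either strand before 33 of the 64 genes (51.6%) and before 14 of the 21 higher ones (66.7%). Among all genes tested 16.7% held it, among higher genes 23.59% and among lower genes 8.86%. It also stood before 19 of the 55 heat-list genes called higher (34.55%). The promoter of AT5G56710 is shown because this gene had the highest log2 fold change among the higher members whose promoter holds the element. This promoter holds it on both strands. The window lies at chr5:22944994-22945243 on the minus strand (RefSeq, TAIR10.1), and capitals mark TGGGCC and its reverse complement.
AT5G56710 promoter: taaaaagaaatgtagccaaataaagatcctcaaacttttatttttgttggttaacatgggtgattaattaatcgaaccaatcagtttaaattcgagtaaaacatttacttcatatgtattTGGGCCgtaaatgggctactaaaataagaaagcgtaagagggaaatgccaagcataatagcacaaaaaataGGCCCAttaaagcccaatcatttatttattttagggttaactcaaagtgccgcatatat

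Calls in some other lists are set beside the shares over all tested genes, which were 8.28% higher and 8.78% lower. Plasma membrane aquaporin genes were called in both directions, with 4 of 13 higher and 3 lower. Of 27 proteasome genes 2 were lower, and this became 0 without AhHAB4-PAI-1 OE replicate 1 and 1 without Ah2880 OE replicate 1. Of 23 jasmonate genes 1 was higher and 3 lower, and the 3 became 1 without AhHAB4-PAI-1 OE replicate 2 and 0 without Ah2880 OE replicate 2, with the higher one lost in both cases. Of 19 SR splicing factors 3 were higher and 1 lower, and the lower one was not called without either AhHAB4-PAI-1 OE replicate. Of 10 ATG8 and NBR1 autophagy genes 1 was lower. The G-box CACGTG stood before 10.9% of higher, 7.86% of lower and 7.40% of all genes.

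The contrast of the lines was then set beside the same contrast at the other stages, which share no library with HS-1. By the labels HS-5 plants had spent 5.5 h and HS-11 plants 11 h at 45 °C. The R-1 and R-3 plants had spent 22 h at 45 °C before they recovered for 1 and 3 days. At HS-5, 12.1% of all genes were higher and 14.4% lower. Of the genes higher at HS-1, 785 were also higher at HS-5 (48.0% of the HS-1 genes and 32.8% of those higher at HS-5), and 50 were lower. Of the genes lower at HS-1, 836 were also lower at HS-5 (48.2% and 29.4%), and 135 were higher. At HS-11, where 25.9% of genes were higher and 21.6% lower, 287 of the genes higher at HS-1 were again higher (17.5% of the HS-1 genes and 5.60% of those at HS-11) but 779 (47.6%) were lower. Among genes lower at HS-1, 357 were again lower at HS-11 (20.6% and 8.35%) and 677 (39.0%) were higher. In recovery, 20.8% of genes were higher and 11.8% lower at R-1, and 29.3% and 14.2% at R-3. Of the genes higher at HS-1, 521 were higher at R-1 (31.8% and 12.7%) and 670 at R-3 (41.0% and 11.6%). Of those lower at HS-1, 415 were lower at R-1 (23.9% and 17.82%) and 460 at R-3 (26.51% and 16.4%). As for opposite calls in recovery, 138 of the genes higher at HS-1 (8.44%) were lower at R-1 and 221 (13.5%) at R-3. Of the genes lower at HS-1, 513 (29.6%) were higher at R-1 and 660 (38.04%) at R-3. Over all genes, too, higher calls outnumbered lower calls at R-1 and R-3, so no reversal is read from these counts.

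The heat lists differed in their course. Small heat shock proteins had a median log2 fold change of 0.94 at HS-1, which was 2.25 at HS-5 and -2.05 at HS-11, and during recovery it was 0.73 (R-1) and -1.23 (R-3). At HS-5 all 17 were higher and at HS-11 16 of the 17 were lower. HSP101 and co-chaperones had medians of 1.23 at HS-1, 1.5002 at HS-5, and then -1.75 at HS-11, and HSP70 genes 0.74, 1.26 and -2.27. The median of the other heat lists was smaller at HS-5 than at HS-1, with 1.201 and then 0.67 for HSP90 genes and 1.28 and then 0.02 for HSFs. Folding genes of the endoplasmic reticulum had a median of 0.81 at HS-1 but -0.23 at HS-5, where 2 of the 18 were higher and 5 lower. Wax genes ran opposite, with medians of -0.92 at HS-1, -1.20 at HS-5, and then 1.62 at HS-11. Morning clock genes had a median of 0.65 after 1 h and of 2.84 at HS-5, where 12 of 13 were higher.

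**Figure D4:**
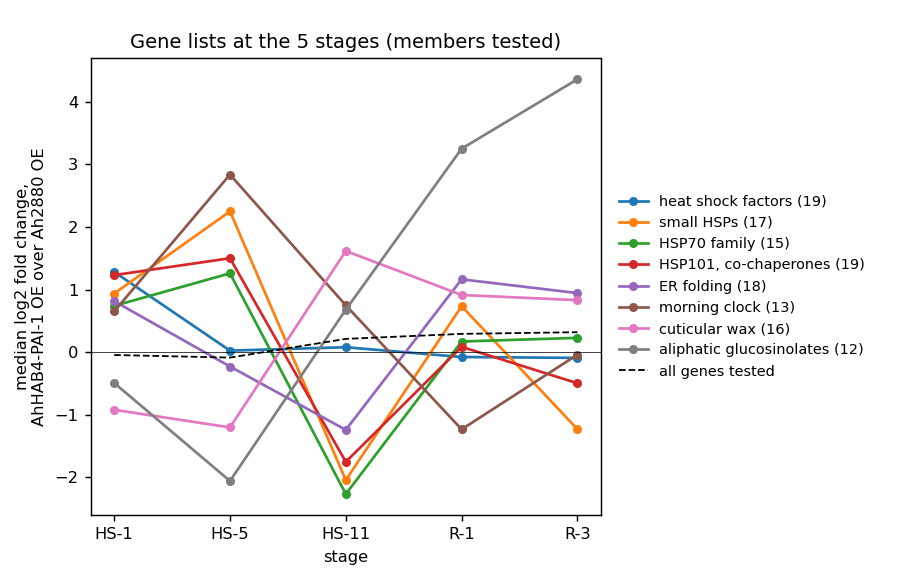
Median log2 fold change (AhHAB4-PAI-1 OE over Ah2880 OE) of each list at the 3 HS stages and the 2 recovery stages, in order of sampling. Each solid line joins the medians of 1 list and the dashed line those of all genes tested. Small heat shock proteins are at 0.94, 2.25 and -2.05 over the 3 HS stages, and wax genes at -0.92, -1.20 and 1.62.

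Whether the contrast itself differed between HS-1 and HS-5 was tested in the same fit. It did for 1763 genes (8.92%), among them 393 of the genes higher at HS-1 (24.0%) and 429 of those lower (24.7%). Of the 393, 261 had the larger value at HS-1 and 132 at HS-5. Of the 429, 396 differed more at HS-1 in that direction and 33 at HS-5. Both sets were picked by their HS-1 values, which favors larger differences at HS-1. No conclusion is therefore drawn from these shares and splits. Chaperone genes of the cytosol had smaller values at HS-1 than at HS-5, such as HSP101, whose log2 fold change was 1.07 at HS-1 but 2.83 at HS-5, and HSP90.1 with 1.11 and 2.96. Genes of the endoplasmic reticulum went the other way, with BIP2 at 1.297 after 1 h but -0.13 at HS-5 and CNX1 at 0.97 and -0.59. LHY, with 0.13 at HS-1, reached 5.19 at HS-5.

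At all 5 stages 26 genes were higher and 22 lower. The higher ones included the pectin lyase-like gene AT1G60590, with 149.6 and 137 CPM in AhHAB4-PAI-1 OE leaves at HS-1, against 48.4 and 55.6 CPM in Ah2880 OE leaves, and log2 fold changes of 1.44, 1.32, 3.06, 2.46 and 3.09 over the stages in order. The RNA-binding family gene AT1G70200 was at 1.63, 1.102, 1.21, 1.35 and 1.77. Of AT4G34560 and AT5G41761, of unknown function, the HS-1 values were 1.19 ± 0.28 and 1.12 ± 0.31. AT4G34560 was not called without AhHAB4-PAI-1 OE replicate 2 (0.90) or Ah2880 OE replicate 2 (1.07), nor was AT5G41761 without AhHAB4-PAI-1 OE replicate 1 (1.13) or 2 (1.147) or Ah2880 OE replicate 2 (0.89). Among those lower throughout, MLP34 was at -4.79, -6.75, -6.51, -5.54 and -5.76, and its relative MLP329 and the flavonol synthase-like gene FLS5 had 1 count in all in AhHAB4-PAI-1 OE leaves at HS-1. The level in Ah2880 OE leaves was 16.97 times as high for MLP329 (95% counting interval 2.87 to 688) and 26.3 times as high for FLS5 (4.55 to 1058). GSTF7, a glutathione transferase, had 1.48 and 3.504 CPM in AhHAB4-PAI-1 OE leaves, against 11.0 and 15.3 CPM in Ah2880 OE leaves and 13.7 and 9.70 CPM in WT leaves. GSTF7 was not called without AhHAB4-PAI-1 OE replicate 2 (-3.12) or Ah2880 OE replicate 2 (-1.93), nor was MLP329 (-7.42 and -3.19, fitted values that depend on the prior count).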

How the data were processed

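RNA was sequenced from leaves of 3 lines at 5 stages (15 treatments, 30 libraries, 2 per treatment), and samples were grouped by their labels. The authors deposited counts per gene, without normalization. According to the methods, they aligned reads to TAIR10 with Bowtie2 2.2.5, processed alignments with Samtools 1.6, removed duplicates with Picard 2.0.1 and counted with Subread 2.0.0. The annotation release and strand setting are not given in the sources used here, so overlapping genes cannot be told apart. Entries with a suffix to another entry's name, 3911 in all with 0.283% of the counts, were kept. Libraries of the series held 46825 to 5739590 counts.

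The test was edgeR's (version 4.0.16, R 4.3.3; filterByExpr, TMM, glmQLFit with legacy set to FALSE, glmQLFTest, 1 mean per treatment). P-values were adjusted over all 19761 genes by the Benjamini-Hochberg method, with a threshold of 0.01. Standard errors are the log2 fold change over the square root of F. The 2 replicates measure only the spread between these pools. Where a line was at 0 in both libraries, 3 counts per library set a lower bound, and where it held 1 to 3 counts in all, an exact 95% interval of the ratio is given. Bounds and intervals cover counting error only. Alternatives were DESeq2 1.42.0, other scalings, filters, thresholds and samples, a replicate block, thinned depth and each library left out. The script was tested on simulated data.

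Genes were named by a rule: the 12 highest and 12 lowest log2 fold changes with at least 50 mean counts and no overlap, up to 4 called members of each list and members whose role or lack of a call is described, the 6 largest CPM differences each way, and 4 genes each way called at all 5 stages. Not all genes that the rule gives are printed. The comparison, the lists and the rule were chosen with earlier results of these data known. Gene names and promoters are from RefSeq (TAIR10.1). Promoter windows were the 250 bases before the gene start, searched on both strands.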

Additional observations from a re-analysis of the deposited data

Results flagged for a closer look

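The contrast between the lines was flagged where it differed between HS-1 and HS-5 by a test of the difference itself (edgeR's quasi-likelihood test, adjusted p under 0.01), which was the case for 1763 genes. Values below are the log2 fold change at HS-1 minus that at HS-5 for named genes, so a negative value means that the fold change was lower at HS-1. The stages were sampled from separate plants.

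Among heat genes the difference was -1.23 for HSP18.2, -1.81 for HSP17.4, -2.05 for AT1G53540, -1.54 for AT1G59860, -1.65 for AT5G37670, -2.24 for AT1G52560, -0.80 for AT5G51440 and -3.43 for AT4G21870. It was -1.63 for Hsp70b, -1.85 for HSP90.1, -0.66 for HSP81-2, -1.75 for HSP101, -1.57 for CLPB3, -0.88 for Fes1A, -0.77 for Hop3, -1.59 for BAG6 and -1.51 for MBF1C. The factors HSFA2, HSFB2A and HSFB2B differed by -1.21, -0.83 and -1.64. All of these had positive fold changes at HS-5. The mitochondrial Hsp89.1 was larger at HS-1, by 0.69.

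Genes of the endoplasmic reticulum had the larger fold changes at HS-1, by 1.19 for BIP1, 1.43 for BIP2, 1.56 for CNX1, 1.49 for CRT1a, 1.16 for ERDJ3B and 1.34 for SHD. Of the stress genes, DREB2B, RHL41 and ERD10 were larger at HS-1 by 1.42, 2.12 and 0.64, whereas DREB2A, APX2, GolS1 and ELIP1 differed by -1.12, -1.74, -1.52 and -1.77. HAI1 differed by -0.92.

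The clock genes LHY, CCA1, RVE1 and PRR9 differed by -5.07, -3.01, -2.57 and -1.69, and GI by 0.81. In surface lipids, KCS1 differed by 1.14, CER3 by -1.25 and MYB96 by 2.296, and MYB96 had a log2 fold change of 1.09 at HS-1 but -1.21 at HS-5. SOT16 and CYP83B1 were less low at HS-1, by 2.01 and 2.80, and LDOX was higher by 3.56.

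Several genes were lower at HS-1 but had positive fold changes at HS-5. ERD5 differed by -4.40, with -1.69 at HS-1 and 2.71 at HS-5, NIA2 by -2.07, NIR1 by -1.15, ASN1 by -2.70, SUS1 by -1.98 and AT3G60930 by -5.06. DIN10 differed by -2.48. The xylem markers IRX3, CESA4 and XCP1 differed by -1.85, -1.70 and -1.20, so that their gap between the lines was wider at HS-1. EMB3111 differed by 2.81, DRB3 by 2.67, AT2G27710 by 0.99 and ATMG00200 by 3.21, each with the larger value at HS-1.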

How the results depend on the processing

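No named gene that the main test or an alternative called had the opposite direction in that alternative. Changes of sign in genes called by neither were not counted. Of 128 named genes 117 were called, of which 53 kept both call and direction under every one and 64 lost the call under at least 1, most often under the test against a log2 fold change of 1. Of those not called 4 gained a call under at least 1 and 7 did not. The main test called 3371 genes at HS-1, 1636 higher and 1735 lower. An adjusted p under 0.05 gave 5155 genes (2707 lower), 3014 genes whose contrast differed between HS-1 and HS-5, and 59 genes higher and 47 lower at all 5 stages. The test against a log2 fold change of 1 gave 430 genes, 190 higher and 240 lower. After the 4 libraries were thinned to the total of the shallowest, 2187 genes were called, 1059 of them lower. Leaving out each of the 4 libraries in turn gave 1835 to 2683 genes, 1020 to 1291 higher and 789 to 1392 lower. Without replicate 1 of both lines 1770 genes were called (894 higher, 876 lower), and without replicate 2 of both lines 1251 (697 and 554). In these fits a line with 1 library is assumed to vary like the other groups. With no filter on low counts, 17 genes were higher at all 5 stages. DESeq2 size factors in edgeR gave 1994 higher and 1522 lower genes, and the cause was not tested. The replicate numbers are in the labels, but samples with the same number did not deviate together (r = 0.067 over genes, 2 pairs), so the block is only an alternative. The fit with the replicate block called 3340 genes, 1622 higher and 1718 lower. Depth limits the low genes: 1 count was worth 1.48 CPM in AhHAB4-PAI-1 OE replicate 1, against 0.356 CPM in Ah2880 OE replicate 2.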
